A study of Homo sapiens with 3 samples.

Results

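The 6 genes described here make, regulate and recycle tetrahydrobiopterin in Cal-33, a cell line from a human squamous carcinoma of the tongue. They are GCH1, PTS, SPR, GCHFR, QDPR and PCBD1, found by their symbols among the 28890 genes of the deposited table. The set was chosen because GCH1 was higher in both knockdown libraries, so the GCH1 values below describe that choice and support nothing further. Cells carried no engineered change (genotype WT in the labels) and differed only in the small interfering RNA (siRNA) they received: one against BACH1 (siBACH1), one against p53 (sip53) or a control siRNA (siControl). RNA was taken 72 h after transfection. Each group is a single library (n = 1), so differences have no replicate check, and no error, test or p-value is given.

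Tetrahydrobiopterin is a reduced pterin made from GTP. It is the cofactor of the aromatic amino acid hydroxylases, of the nitric oxide synthases and of alkylglycerol monooxygenase, and it also traps radicals in membranes. GTP cyclohydrolase 1, encoded by GCH1, opens the synthesis and usually limits its rate. 6-Pyruvoyltetrahydropterin synthase (PTS) and sepiapterin reductase (SPR) finish it, and GCHFR encodes the feedback regulator that binds GTP cyclohydrolase 1. After a hydroxylase has used the cofactor, the dehydratase PCBD1 and the reductase QDPR restore it.

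Values are TPM, transcripts per 1000000, which are scaled for transcript length and can be compared between genes. The number of reads behind a TPM value is unknown, so low values carry an error that cannot be stated. Changes are log2((TPM + 1)/(TPM + 1)), which understates the change of weakly expressed genes, and a fold given with TPM is the plain ratio. A gene counted as measured in a pair of libraries where it reached 1 TPM in at least 1 of them. Between 12113 and 12198 genes reached 1 TPM in a library. BACH1, the transcript targeted in siBACH1, was at 4.30 TPM in siBACH1, 19.6 TPM in sip53 and 15.2 TPM in siControl. All 6 squamous epithelial markers looked up (KRT5, KRT14, KRT17, CDH1, DSG3 and SFN) were present, at a lowest value of 39.8 TPM. They summed to 4277 TPM in siBACH1, 5979 TPM in sip53 and 6682 TPM in siControl, most of it KRT5. All 6 were lower in siBACH1 than in siControl, 3 of them by at least 1.5-fold on the log2 scale, where 3.69% of all measured genes were. In sip53 over siControl, 3 were higher and 3 lower, and 0 were past 1.5-fold. In whole-culture RNA, fewer cells of a type and less RNA per cell cannot be told apart.

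The promoter of the feedback regulator is shown because GCHFR is the partner against which GCH1 is weighed below, and because it was the only one of the 5 members' promoters searched (PTS, SPR, GCHFR, QDPR and PCBD1) that held the core letters of the antioxidant response element, a sequence bound by BACH1 with small MAF proteins. The RefSeq window (GRCh38.p14, plus strand, chr15:40763818-40764117) runs from 250 bases before the gene's start to 50 bases after it. The motif searched was TGACNNNGC on both strands, and capitals mark its match, which begins 17 bases before the RefSeq start. The GENCODE start of GCHFR used below, 40764020, lies further upstream, so by that annotation the match falls inside the gene. No window was available for GCH1, so its promoter was not searched.
GCHFR promoter: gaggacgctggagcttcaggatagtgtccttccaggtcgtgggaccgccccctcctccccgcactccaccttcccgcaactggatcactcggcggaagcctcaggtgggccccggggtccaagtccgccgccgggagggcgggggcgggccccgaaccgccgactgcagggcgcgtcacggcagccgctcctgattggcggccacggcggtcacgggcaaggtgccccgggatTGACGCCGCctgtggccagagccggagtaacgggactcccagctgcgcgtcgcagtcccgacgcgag
The motif was present in 13.3% of the 35116 RefSeq windows of the same length. A match is a description of the letters and not evidence of binding.

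GCH1 was the member that differed between the libraries. It was at 5.15 TPM in siBACH1, 4.22 TPM in sip53 and 0.913 TPM in siControl. Both knockdown libraries were high and the control was the only one below 1 TPM. The plain ratio was 5.64 for siBACH1 over siControl and 4.62 for sip53 over siControl, with log2 changes of 1.68 and 1.45. Because the control value is low, the log2 change depends on the pseudocount: with 0.1 TPM the changes were 2.37 and 2.09, and with 5 TPM they were 0.78 and 0.64. In the direct comparison, siBACH1 was 1.22 times sip53, a log2 change of 0.24. GCH1 lies on chromosome 14 from 54842008 to 54902852 on the minus strand (GRCh38, GENCODE release 29), where 7 transcripts are annotated, 5 of them protein-coding.

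The 2 further synthesis enzymes were expressed at much higher levels, and each had values within 1.23-fold of each other. PTS was at 41.1 TPM in siBACH1, 41.2 TPM in sip53 and 44.2 TPM in siControl. SPR was at 30.9 TPM in siBACH1, 28.6 TPM in sip53 and 35.3 TPM in siControl. The control was the highest of the 3 libraries for both genes. It was the lowest for GCH1, which follows from the choice of the set. The log2 changes of PTS were -0.10 in siBACH1 over siControl and -0.10 in sip53 over siControl, beside -0.08 and -0.07 over all measured genes. Those of SPR were -0.18 and -0.29, and the second was the lowest change of any member in either knockdown. After each library was rescaled so that its median ratio to the control was 1, both PTS changes were -0.02. The SPR changes were then -0.10 and -0.22. PTS lies on chromosome 11 (112226365 to 112269955, plus strand) and SPR on chromosome 2 (72887360 to 72892158, plus strand).

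GCHFR was weakly expressed, at 2.56 TPM in siBACH1, 2.80 TPM in sip53 and 2.27 TPM in siControl. Its log2 changes were 0.12 in siBACH1 over siControl and 0.22 in sip53 over siControl. Both knockdown libraries were thus above the control, by 0.286 TPM and 0.527 TPM. GCHFR (chromosome 15, 40764020 to 40767710, plus strand) overlaps DNAJC17 on the opposite strand over 2556 bases. The labels do not say whether strand was kept, so reads of the 2 genes in the overlap may not have been told apart. DNAJC17 was at 29.4 TPM in siBACH1, 23.9 TPM in sip53 and 33.3 TPM in siControl, above GCHFR in every library.

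The recycling genes had their levels within 1.17-fold of each other in every pair of libraries. PCBD1, whose protein also serves as a dimerization cofactor of HNF1 transcription factors, was at 71.2 TPM in siBACH1, 60.7 TPM in sip53 and 63.6 TPM in siControl. QDPR was at 9.60 TPM in siBACH1, 9.30 TPM in sip53 and 10.1 TPM in siControl. The log2 change of PCBD1 was 0.16 in siBACH1 over siControl and -0.07 in sip53 over siControl, and the second turned to 0.01 after each library was rescaled so that its median ratio to the control was 1. The log2 changes of QDPR were -0.06 and -0.10, and the first turned to 0.01 under the same rescaling. PCBD1 lies on chromosome 10 (70882280 to 70888784, minus strand) and QDPR on chromosome 4 (17460261 to 17512234, minus strand).

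**Figure D1:**
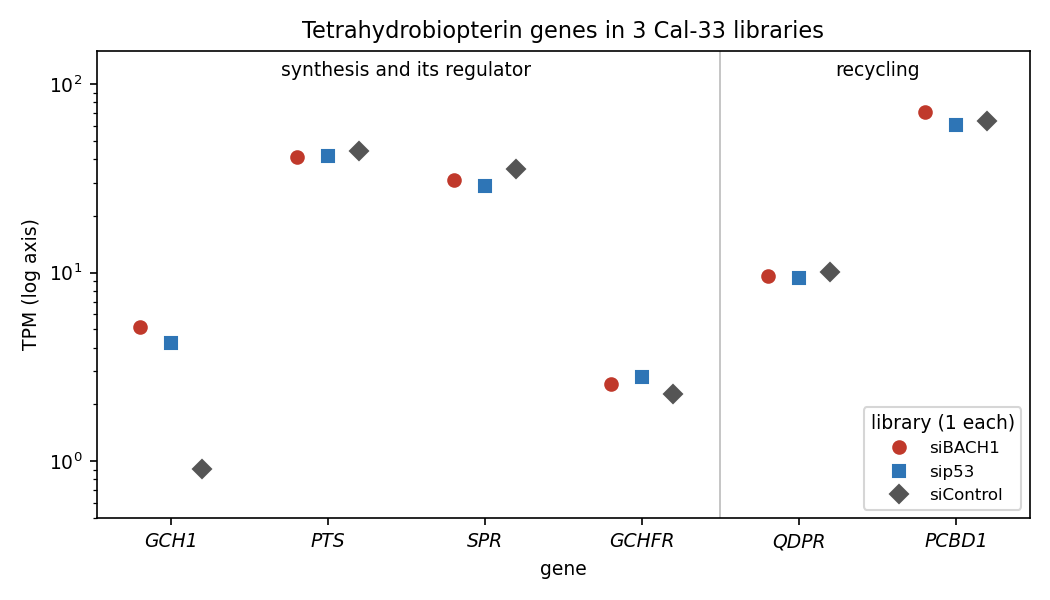
TPM of the 6 tetrahydrobiopterin genes on a log axis, with 1 point per library (siBACH1, sip53 and siControl) and the synthesis genes left of the recycling genes. GCH1 is at 5.15, 4.22 and 0.913 TPM, while the 3 points of every other gene lie close together.

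The order of the levels was PCBD1, PTS, SPR and QDPR from the highest in all 3 libraries. Only the last places differed: GCH1 stood above GCHFR in siBACH1 and sip53, and below it, in the last place, in siControl. With 1 library per group there is no spread against which to judge whether neighbours in this order differ. The ratio of GCH1 to GCHFR transcripts was 2.01 in siBACH1, 1.51 in sip53 and 0.402 in siControl. PTS transcripts outnumbered GCH1 transcripts by 7.97 times in siBACH1, 9.77 times in sip53 and 48.4 times in siControl, and SPR transcripts did so by 6.003, 6.78 and 38.6 times in the same libraries. GCH1 made up 3.21% of the members' summed TPM in siBACH1, 2.87% in sip53 and 0.584% in siControl. The sum itself was 160.5 TPM in siBACH1, 146.9 TPM in sip53 and 156.3 TPM in siControl, and without GCH1 it was 155.3 TPM, 142.6 TPM and 155.4 TPM.

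The members were then set beside all genes. A member was counted at a difference of at least 1.5-fold on the log2(TPM + 1) scale. In siBACH1 over siControl this held for 1 of 6 members, GCH1, which was higher, where 1.78% of the 12437 measured genes were higher by that much and 3.69% lower. In sip53 over siControl it again held for GCH1 alone, with 1.54% of 12412 measured genes higher and 2.88% lower. In siBACH1 over sip53 it held for 0 of 6, with 2.84% of 12390 measured genes higher and 3.18% lower. At a threshold of 2-fold GCH1 was again past it in both knockdowns over siControl, where 0.611% of measured genes were higher and 0.82% lower in siBACH1, and 0.395% higher and 0.572% lower in sip53. In siBACH1 over sip53 no member was past 2-fold, where 0.783% of genes were higher and 0.759% lower. Since GCH1 was chosen on these contrasts and both share the control library, nothing is read from its count. By the same choice its change stood high among all measured genes, at place 18 of 12437 in siBACH1 and place 10 of 12412 in sip53, or place 9 of 11720 and place 1 of 11706 among protein-coding genes. The median log2 change of the 5 members without GCH1 was -0.06 in siBACH1 and -0.10 in sip53, beside -0.08 and -0.07 over all measured genes.

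**Figure D2:**
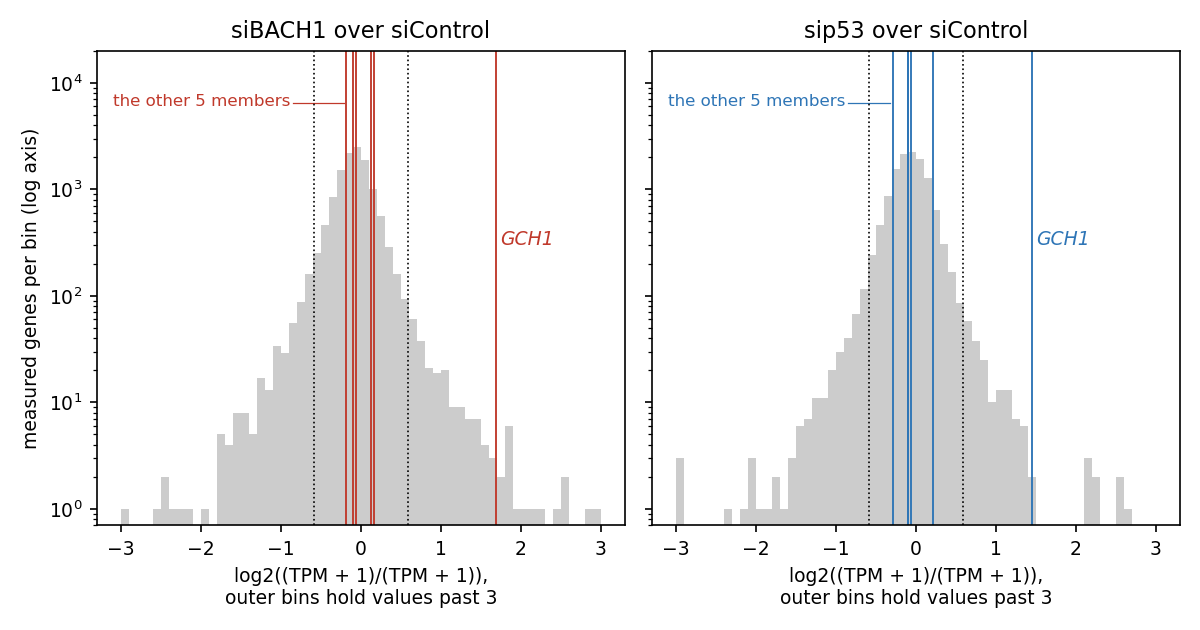
Histograms of the log2 changes of all measured genes in siBACH1 over siControl (left, 12437 genes) and sip53 over siControl (right, 12412 genes), with the number of genes per bin on a log axis, a coloured line for each of the 6 members and dotted lines at 1.5-fold. GCH1 is at 1.68 and 1.45, and the other 5 members lie between -0.18 and 0.16 (left) and between -0.29 and 0.22 (right), inside the dotted lines.

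The genes beside GCH1 on the chromosome were not higher in both knockdown libraries. SAMD4A, 48692 bases away and encoding an RNA-binding protein, was at 2.66 TPM in siBACH1, 3.80 TPM in sip53 and 3.08 TPM in siControl. WDHD1, 36097 bases away on the other side and encoding a DNA replication protein, was at 18.2 TPM in siBACH1, 15.2 TPM in sip53 and 19.0 TPM in siControl. Of the 12 protein-coding neighbours of the 6 members, 8 were measured in each knockdown comparison. The homeobox gene EMX1, beside SPR, was the only one past 1.5-fold in either on the log2(TPM + 1) scale. It was at 0.399 TPM in siBACH1, 0.542 TPM in sip53 and 1.13 TPM in siControl, with a log2 change of -0.60 in siBACH1 over siControl. EMX1 counted as measured only through siControl, the library where it was highest. Over all measured genes, 1.78% were higher and 3.69% lower by that much in siBACH1 over siControl, and 1.54% and 2.88% in sip53 over siControl. BCO2, a carotenoid oxygenase gene beside PTS, was at 4.50 TPM in siBACH1, 4.61 TPM in sip53 and 2.97 TPM in siControl, higher in both knockdown libraries with plain ratios of 1.52 and 1.55 and log2 changes of 0.47 and 0.50. FDPSP3, a pseudogene listed within GCH1, was at 0 in all 3 libraries.

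Reductases that can also act in pterin recycling and salvage were more abundant than GCH1, and 1 of them was past 1.5-fold. AKR1B1, the aldose reductase, was at 115 TPM in siBACH1, 47.4 TPM in sip53 and 61.3 TPM in siControl. It was thus high in siBACH1 and low in sip53, with log2 changes of 0.90 and -0.36 over siControl, and siBACH1 was 2.44 times sip53. GCH1, by contrast, was above the control in both. AKR1C3, an aldo-keto reductase with near-identical paralogs that make its value uncertain, was at 490.3 TPM in siBACH1, 434.5 TPM in sip53 and 387.7 TPM in siControl. CBR1, a carbonyl reductase, was at 147.1 TPM in siBACH1, 162 TPM in sip53 and 190.8 TPM in siControl, and its relative CBR3 was at 17.9 TPM, 17.0 TPM and 22.1 TPM in the same libraries. Both carbonyl reductases were lower in each knockdown library than in the control.

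Over the 7 recycling and salvage genes of this list, 1 was at least 1.5-fold higher and 0 lower in siBACH1 over siControl, where 1.78% of all measured genes were higher and 3.69% lower. The median log2 change was 0.03 beside -0.08 over all measured genes. In sip53 over siControl 0 were past 1.5-fold in either direction, with a median of -0.18 beside -0.07. In siBACH1 over sip53, AKR1B1 was again the 1 gene past 1.5-fold (2.84% of all measured genes were higher by that much), and the median was 0.12 beside -0.01.

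The GTP supply list concerns the substrate of the first step. It also holds GMPR and GMPR2, whose proteins turn GMP back to inosine monophosphate, away from GTP. None of its 9 genes was past 1.5-fold on the log2(TPM + 1) scale in any of the 3 pairs. The shares of all measured genes past it, 1.78% higher and 3.69% lower in siBACH1 over siControl and 1.54% and 2.88% in sip53 over siControl, are small enough that 0 of 9 is close to the background. In sip53 over siControl all 9 had a negative log2 change, from -0.35 to -0.07, with a median of -0.20 beside -0.07 over all measured genes; 1 of the 9 turned positive after rescaling. In siBACH1 over siControl 5 were positive and 4 negative, with a median of 0.07 beside -0.08, and 7 were positive after rescaling. IMPDH2, the inosine monophosphate dehydrogenase of proliferating cells, was at 139.6 TPM in siBACH1, 102 TPM in sip53 and 130.4 TPM in siControl. GMPS, which makes GMP, was at 162.6 TPM in siBACH1, 146.9 TPM in sip53 and 154.2 TPM in siControl. The nucleoside diphosphate kinases NME2 and NME1 are close copies whose values are uncertain; NME2 was at 547.4 TPM in siBACH1, 469.3 TPM in sip53 and 562.4 TPM in siControl, and NME1 was at 132.3 TPM, 121.7 TPM and 139.5 TPM.

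**Figure D3:**
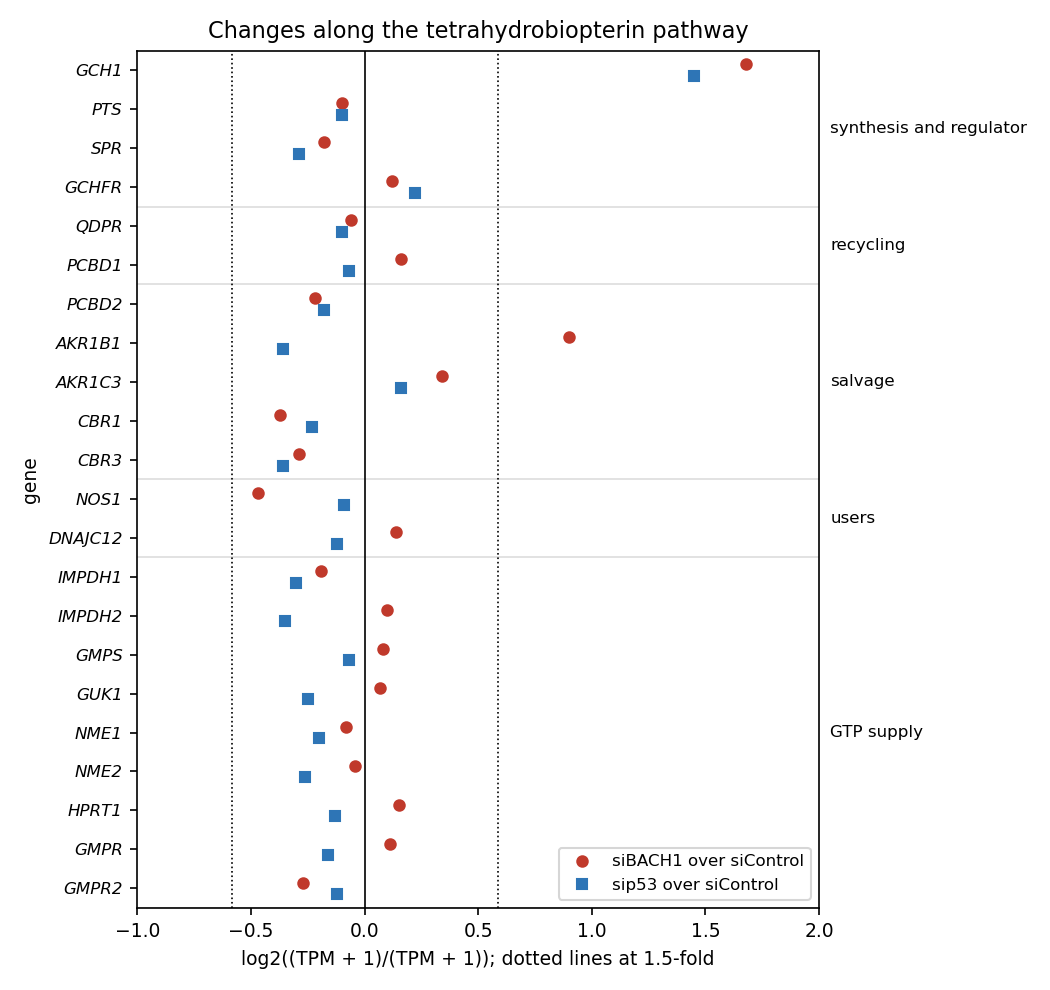
Log2 changes over siControl of the 6 members, 5 of the recycling and salvage genes, the 2 measured users and partners and 9 GTP supply genes, with circles for siBACH1, squares for sip53 and dotted lines at 1.5-fold. GCH1 in both libraries and AKR1B1 in siBACH1 (0.90) are the points past the dotted lines.

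Few enzymes that use tetrahydrobiopterin were expressed. Of the 9 users and partners looked up, 2 reached 1 TPM in any library. NOS1, the neuronal nitric oxide synthase, was at 2.50 TPM in siBACH1, 3.56 TPM in sip53 and 3.85 TPM in siControl, with a log2 change of -0.47 in siBACH1 over siControl and -0.09 in sip53 over siControl. DNAJC12, a co-chaperone of the aromatic amino acid hydroxylases, was at 1.64 TPM in siBACH1, 1.20 TPM in sip53 and 1.39 TPM in siControl. Neither was past 1.5-fold on the log2(TPM + 1) scale, though the plain TPM ratio of NOS1 was 0.649 in siBACH1 over siControl. Over all measured genes, 1.78% were higher and 3.69% lower by that much in siBACH1 over siControl, and 1.54% and 2.88% in sip53 over siControl. With shares this small, 0 of 2 is close to the background. The tyrosine hydroxylase gene TH was listed at 0 in both knockdown libraries and at 0.135 TPM in siControl. The tryptophan hydroxylase TPH2 reached 0.955 TPM in siBACH1, 0.947 TPM in sip53 and 0.7996 TPM in siControl. The inducible synthase NOS2 was listed at 0 in siBACH1 and siControl and at 0.0170 TPM in sip53, and the endothelial synthase NOS3 was at 0.292 TPM in siBACH1, 0.274 TPM in sip53 and 0.313 TPM in siControl. AGMO, alkylglycerol monooxygenase, was at 0.269 TPM in siBACH1, 0.492 TPM in sip53 and 0.375 TPM in siControl.

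Markers of other cells were low, with 1 exception. The 5 markers of monoaminergic neurons, a cell type known for high GCH1, summed to 0 TPM in siBACH1, 0.0170 TPM in sip53 and 0.135 TPM in siControl, and DDC, SLC18A2 and SLC6A3 were at 0 throughout. The 4 immune markers summed to 2.80, 2.60 and 1.79 TPM in siBACH1, sip53 and siControl, with CD14 giving most of the sum. The 4 fibroblast markers summed to 4.74, 4.97 and 4.09 TPM in the same libraries. One of them, DCN, was at 1.12 TPM in siBACH1, 0.507 TPM in sip53 and 0.245 TPM in siControl, with log2 changes over siControl of 0.77 and 0.28. DCN reached 1 TPM only in siBACH1, where it was highest, so it did not count as measured in sip53 over siControl. The 3 endothelial markers summed to 20.3, 18.3 and 17.9 TPM, nearly all of it CDH5, at 18.7, 17.0 and 16.0 TPM. The last 3 sums, and DCN, were higher in both knockdown libraries, as GCH1 was, and their part in the GCH1 values was not tested.

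The genes whose pair of changes lay nearest to that of GCH1 were picked by those changes, so a control below both knockdown libraries follows from the choice. Likeness was the Euclidean distance between the 2 log2 changes over siControl, across 3 libraries and 11810 other protein-coding genes. Of the 5 nearest, 4 are described. The first, at a distance of 0.37, was NPIPA5, at 3.77 TPM in siBACH1, 2.86 TPM in sip53 and 0.731 TPM in siControl; it belongs to a family of near-identical copies, so its value is uncertain. KCNE4, a potassium channel subunit (0.55), was at 2.41 TPM in siBACH1, 1.38 TPM in sip53 and 0.233 TPM in siControl. S100P, a calcium-binding protein (0.57), was at 10.1 TPM in siBACH1, 8.41 TPM in sip53 and 3.55 TPM in siControl. HS3ST3A1, a heparan sulfate sulfotransferase (0.64), was at 1.13 TPM in siBACH1 and 1.33 TPM in sip53 and listed at 0 in siControl. Of these 4, S100P alone was above 1 TPM in the control. A gene needed 1 TPM in at least 1 library to be compared. NPIPA5, KCNE4 and HS3ST3A1 met this only through the knockdown libraries, where they were high. With a pseudocount of 0.1 TPM, NPIPA5 and KCNE4 were still among the 5 nearest.

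**Figure D4:**
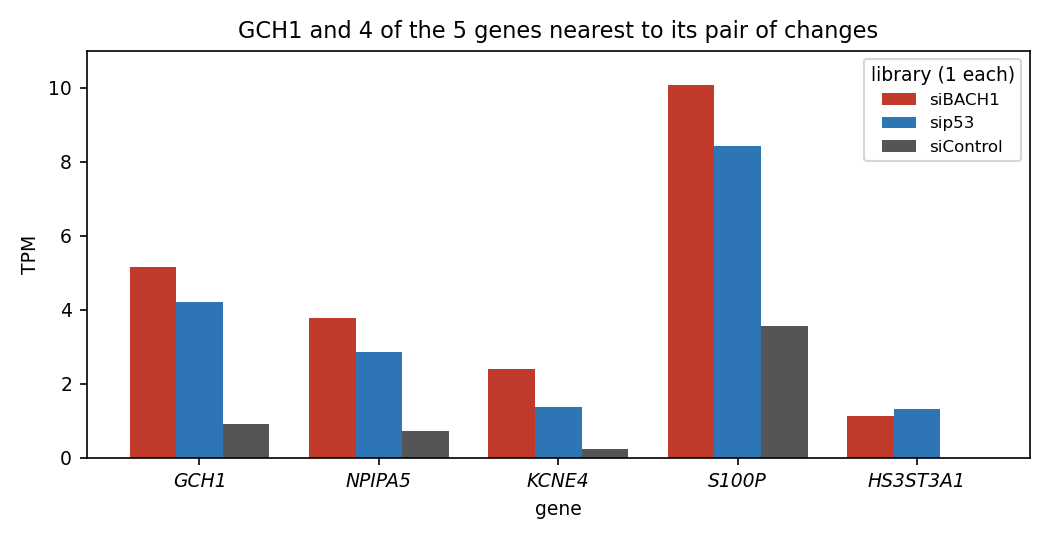
TPM of GCH1 and of 4 of the 5 protein-coding genes nearest to it by their pair of log2 changes, with 1 bar per library (siBACH1, sip53 and siControl) on an axis that starts at 0. In each gene the siControl bar is the lowest, which follows from the choice by these changes, and it is listed at 0 for HS3ST3A1.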

How the data were processed

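The data were 3 RNA-seq libraries, 1 per siRNA. The authors deposited 1 table of TPM per gene and library, and the listed values summed to between 978371 and 979148 TPM. The submitters' processing notes name bcl2fastq 2.20, kallisto 0.44.0 and the builds GRCh38, GRCm38 and mm10 with no role for each; for the annotation and for how transcripts were summed per gene, these sources give nothing. Depth is unknown, so no interval is given.

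Log2 changes with a pseudocount of 1 TPM were computed in Python 3.11.15 with pandas 2.3.3 and numpy 2.4.6. The arithmetic was checked on known changes put without noise into well expressed control values, which says nothing about error near 1 TPM. Positions came from GENCODE release 29 and promoters from RefSeq. The members and lists were chosen with earlier results of these data known. All 6 members were named, with the list members past 1.5-fold, up to 4 others per list with the highest mean TPM, the 5 genes nearest to GCH1, and the neighbours. A few further list members were named after their values were seen. The level of the transcript targeted in sip53, and some genes that the rule and lists took in, are not reported here.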

Additional observations from a re-analysis of the deposited data

How the results depend on the processing

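Alternatives were a pseudocount of 0.1 or 5 TPM, rescaling to a median ratio of 1, TPM recomputed without 13 mitochondrially encoded and 87 ribosomal protein genes, a 2-fold threshold, other filters on low TPM for the lists and, added after seeing the data, a correction for transcript GC content and length. Of 415 values recomputed, leaving out changes and medians that a threshold cannot move, 400 kept their call, with counts within 1.5 times, called changes within 1.5-fold and medians within 0.1. Some of the 415 could not move either. A count of 0 at 1.5-fold stays 0 at 2-fold. The filters on low TPM left the 7 recycling and salvage genes as they were. The 400 is thus no measure of stability. GCH1 stayed past 1.5-fold in both knockdowns under every alternative applied to it. Its log2 change ran from 0.78 to 2.37 in siBACH1 and from 0.64 to 2.09 in sip53. The extremes came from the pseudocounts of 5 and 0.1 TPM. The filters on low TPM were not applied to the members. At a minimum of 5 TPM, GCH1 would not have counted as measured in sip53 over siControl, at 4.22 and 0.913 TPM. With 0.1 TPM, 1 user gene passed 1.5-fold lower and 1 cytokine-response gene higher in siBACH1, 1 cytokine-response gene passed lower in sip53, and 2 of the 5 genes nearest to GCH1 were shared. At 2-fold, 0 salvage genes were higher in siBACH1 over siControl. With the GC content and length correction, 1 cytokine-response gene passed lower in sip53. No user gene reached 5 TPM, so that filter gave no median. No paired analysis was possible because each group had 1 library, and none could be left out. A control value of 0.913 TPM of unknown depth limits how precisely the GCH1 fold is known.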

Other observations

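Cytokine-response genes were also looked up, because GCH1 is known to be induced by interferon gamma and tumour necrosis factor in other cells. Of 12 genes, 9 were measured in each pair and 0 were past 1.5-fold in either direction on the log2(TPM + 1) scale, where 1.78% of all measured genes were higher and 3.69% lower in siBACH1 over siControl, and 1.54% higher and 2.88% lower in sip53 over siControl. With shares this small, 0 of 9 is close to the background. Their median log2 change was -0.05 in siBACH1 over siControl, a sign that turned to 0.03 after rescaling, and -0.09 in sip53 over siControl. SOD2, the mitochondrial superoxide dismutase, was at 91.5 TPM in siBACH1, 83.5 TPM in sip53 and 89.1 TPM in siControl. IRF1, an interferon-induced transcription factor, was at 32.4 TPM in siBACH1, 35.0 TPM in sip53 and 42.6 TPM in siControl. NFKBIA, the inhibitor of NF-kappaB, was at 35.0 TPM in siBACH1, 31.8 TPM in sip53 and 36.8 TPM in siControl. IRF1 and NFKBIA were thus lower in both knockdown libraries than in the control. For NFKBIA in siBACH1 the log2 change was -0.07, close to the median of -0.08 over all measured genes. ICAM1 was higher in both knockdown libraries, at 1.25 TPM in siBACH1, 1.10 TPM in sip53 and 0.710 TPM in siControl. CXCL8 was too, at 3.83, 2.74 and 2.55 TPM in the same libraries. ICAM1 counted as measured only through the knockdown libraries, where it was high. In each knockdown over siControl, 4 of the 9 measured genes had a positive log2 change and 5 a negative one. This split depended on the processing. After rescaling, 6 were positive and 3 negative in siBACH1, while sip53 kept 4 and 5. With the GC content and length correction, 3 were positive and 6 negative in siBACH1, and 2 and 7 in sip53. A part of cytokine signalling in the GCH1 values was not tested. IL6 was listed at 0 in all 3 libraries.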
